A study of Mus musculus with 5 samples.

Results

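The comparison described here set MutuDC cells after 6 h with Fanchinoline against the vehicle library of the same series. MutuDC is an established mouse dendritic cell line. It was derived from spleen tumours of mice that carry the SV40 large T antigen under the Cd11c promoter, and it is of the conventional type 1 dendritic cell (cDC1) kind, the kind specialised in cross-presenting antigen. Fanchinoline is spelled as in the labels, and the sources used here do not give its dose. The comparison uses 2 of 5 libraries, and each library is the only one of its time point. The other libraries, taken after 2, 12 and 24 h with the compound, are given beside them. The labels call the 0 h sample a vehicle control, while the design text of the series calls the controls untreated, so whether solvent was added at 0 h is not settled. No vehicle library was taken at 6 h, and exposure and hours in culture therefore cannot be told apart. The design text speaks of triplicates, but the deposited table holds 1 column per time point, so no difference below has a replicate check and no p-value is given.

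Total counts were 33568526 in the vehicle library and 42854511 in the 6 h library, and 37589066 to 40730837 in the others. Levels are CPM, counts scaled to library size with TMM factors, and a ratio is the difference of log2 CPM, 6 h minus vehicle, unless another pair of libraries is named. Each ratio has a 95% interval by the exact Clopper-Pearson method, which covers counting error only. CPM is a share of all counted RNA in a bulk culture, so fewer expressing cells and less RNA per cell cannot be told apart. Of 53700 gene entries, 8708 (16.2%) had at least 10 CPM in either library and were compared. At this edge Thtpa, at 9.985 CPM in its higher library, was left out and 3110040N11Rik, at 10 CPM, was kept. The cDC1 label was checked against its markers, and 12 of 13 had at least 10 CPM in either library, with Itgae below. The summed cDC1 markers were at 7620 CPM in vehicle and 8340 CPM at 6 h. The defining markers of T and NK cells (such as Cd3e), B cells (such as Ms4a1), neutrophils and mast cells, erythroid cells and fibroblasts stayed under 10 CPM in both libraries, with sums of at most 1.43 CPM per cell type. Ighm, an immunoglobulin heavy chain gene on a wider B cell list, was at 31.5 CPM in vehicle and 26 CPM at 6 h. Among 12 macrophage and monocyte markers, 6 reached 10 CPM (C1qa, C1qb, C1qc, Cd68, Csf1r and Lyz2), their list summed to 725 CPM in vehicle and 575 CPM at 6 h, and Mertk was at 0. Of the cDC2 markers Itgam reached 10 CPM (list sum 110 CPM in vehicle, 141 CPM at 6 h), and of the plasmacytoid markers Bst2 and Tcf4 did (86.2 and 86 CPM).

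Several gene programs that recur below work as follows. In low oxygen, or when the prolyl hydroxylases that use oxygen and iron are blocked, the factor HIF-1 escapes degradation and raises genes of glucose uptake, glycolysis, lactate export and mitophagy. When sterol in the endoplasmic reticulum is scarce, SREBP factors are released by cleavage and raise genes of cholesterol synthesis and uptake. The integrated stress response raises translation of ATF4, a factor that drives amino acid transport and synthesis genes. None of these proteins was measured here.

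At 6 h, 131 genes were called higher than vehicle (1.5% of those compared) and 33 lower (0.379%). A gene was called when its ratio was at least 1 in size, a 2-fold difference, and its interval excluded equal levels. The called genes included 6 members of the hypoxia lists and 4 of the glycolysis lists, 5 of the cholesterol lists, 4 of fatty acid synthesis and 1 ATF4 target, all in the higher direction. Over all compared genes the median ratio was 0.04, with 4720 above 0 and 3988 below.

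Transcript length moved with the ratio. The longest annotated transcript of the genes called higher had a median of 7391 bases, against 3433 over all compared genes, and 46 of the 131 (35.1%, against 3.53%) were over 9 kb. The genes called lower had a median of 1619 bases. In 5 bins of the compared genes ordered by length, the median ratio went from -0.22 in the shortest through -0.07, 0.04 and 0.17 to 0.43 in the longest. The longest bin held 85 of the genes called higher, and the shortest held 17 of those called lower. The 2 h library stood against vehicle in the same way, from -0.21 in the shortest bin to 0.37 in the longest, whereas 6 h over 2 h ran only from -0.01 to 0.05. Both vehicle ratios share the vehicle library, so the length pattern separates that single library from treated ones, and its part in the results was not tested. Beside the results stand length-adjusted ratios, which are what remains of a ratio after its smooth fit on length and GC content. With them 57 genes were called higher (0.655%) and 26 lower (0.299%). Of the 131 genes called higher, 46 were still called, and of the 33 lower, 16.

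**Figure D1:**
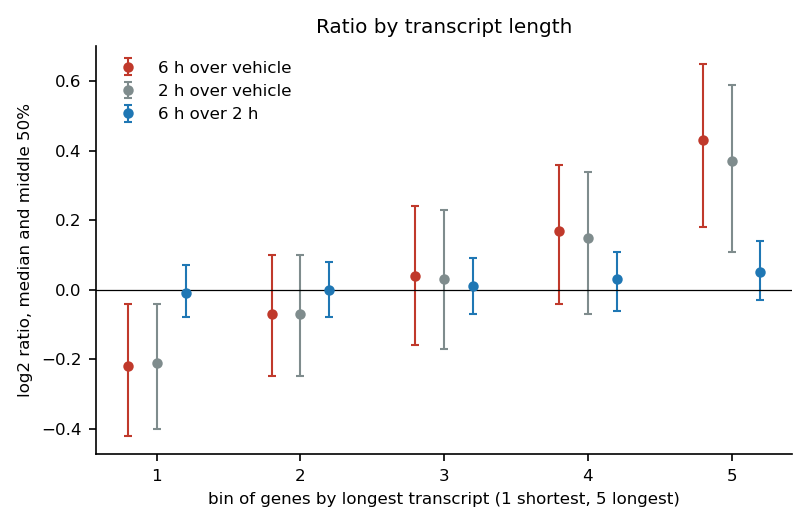
Median log2 ratio with the middle 50% of genes (y axis) in 5 bins of the compared genes by longest annotated transcript (x axis, 1 shortest to 5 longest), for 6 h over vehicle, 2 h over vehicle and 6 h over 2 h. Both ratios over vehicle climb with length, from -0.22 to 0.43 and from -0.21 to 0.37, while 6 h over 2 h stays between -0.01 and 0.05.

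**Figure D2:**
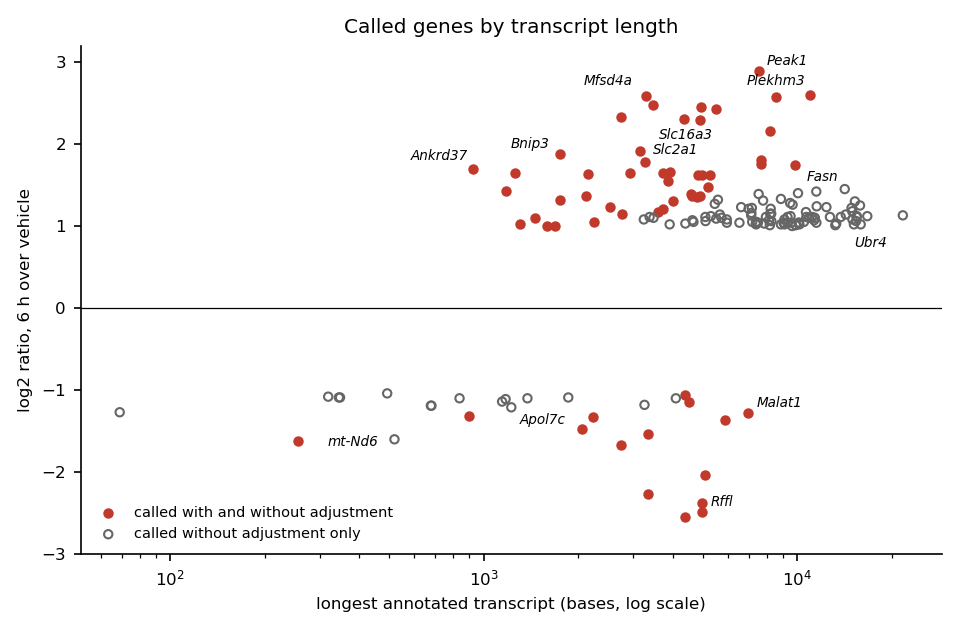
Log2 ratio of 6 h over vehicle (y axis) against the longest annotated transcript in bases (x axis, log scale) for 161 of the 164 genes called, without 2 genes beyond the axis and 1 without an annotated length. Filled points are the 60 genes called with and without length adjustment, and open points, crowded among long transcripts above 1, are called without it only.

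The 6 h and 2 h libraries differed less from each other than either did from vehicle. The standard deviation of the log2 ratio over compared genes was 0.42 for 6 h over vehicle, 0.39 for 2 h over vehicle and 0.2 for 6 h over 2 h. From 2 h to 6 h, 14 of 8600 genes were called higher (0.163%) and 8 lower (0.093%). Of the 14, 6 were hypoxia or glycolysis genes, namely Bnip3 (1.90), Slc16a3 (1.68), Pdk1 (1.13), Pfkl (1.12), Bnip3l (1.10) and Ccng2 (1.07). Of the 8 lower, 2 were ATF4 targets, Chac1 (-1.12) and Slc1a4 (-1.10), and the others were entries named by a Gm number. These steps do not use the vehicle library. Among the 8708 genes compared at 6 h over vehicle, the hypoxia lists held 29, the glycolysis lists 21 and the ATF4 lists 33. The lists were chosen with earlier results of these data known. From 6 h to 12 h, 5 of 8608 were called higher (0.0581%) and 18 lower (0.209%). Against vehicle the counts were 79 higher (0.911%) and 36 lower (0.415%) at 2 h, and 203 higher (2.33%) and 66 lower (0.757%) at 12 h. In both directions together 1.33% of compared genes were called at 2 h, 1.88% at 6 h and 3.09% at 12 h.

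Hypoxia-inducible genes were among the highest named groups. The 3 lists together had 29 compared members of 49 listed, with 26 above 0. Of the 29, 6 were called higher, against 1.5% of all compared genes, and 0 lower. Their median ratio was 0.50, beside 0.04 over all compared genes. Length-adjusted it was 0.49 with 7 called higher, against 0.655% of all compared genes. For 6 h over 2 h the median of the 29 hypoxia genes was 0.46.

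The promoters of 4 of the called members are shown because the core of the hypoxia response element can be read in them. They run from 250 bases before to 50 after the annotated start (RefSeq, GRCm38.p6), on the gene's own strand, with each ACGTG or GCGTG and its reverse complement (CACGT or CACGC) in capitals. The Bnip3 window is chr7:138909457-138909756 on the minus strand, Ankrd37 is chr8:45999801-46000100 on the minus strand, Egln1 is chr8:124949205-124949504 on the minus strand, and Slc16a3, a lactate exporter described below, is chr11:120948817-120949116 on the plus strand.
Bnip3: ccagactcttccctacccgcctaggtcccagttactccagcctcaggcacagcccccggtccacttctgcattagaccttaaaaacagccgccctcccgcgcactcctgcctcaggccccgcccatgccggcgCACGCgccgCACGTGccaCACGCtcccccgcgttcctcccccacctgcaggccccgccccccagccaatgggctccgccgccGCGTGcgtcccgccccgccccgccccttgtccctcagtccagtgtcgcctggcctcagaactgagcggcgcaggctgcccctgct
Ankrd37: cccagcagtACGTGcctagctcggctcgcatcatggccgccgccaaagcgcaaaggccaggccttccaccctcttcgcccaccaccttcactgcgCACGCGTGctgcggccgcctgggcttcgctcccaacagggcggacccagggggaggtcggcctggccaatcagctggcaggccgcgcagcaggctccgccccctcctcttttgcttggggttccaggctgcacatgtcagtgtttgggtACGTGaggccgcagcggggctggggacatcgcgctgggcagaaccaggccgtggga
Egln1: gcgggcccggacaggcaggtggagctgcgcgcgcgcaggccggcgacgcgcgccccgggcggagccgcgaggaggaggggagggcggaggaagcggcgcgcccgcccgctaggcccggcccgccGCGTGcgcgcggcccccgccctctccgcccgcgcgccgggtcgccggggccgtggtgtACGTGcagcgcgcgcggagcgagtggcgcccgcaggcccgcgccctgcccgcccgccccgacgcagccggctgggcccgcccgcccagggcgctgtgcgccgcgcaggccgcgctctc
Slc16a3: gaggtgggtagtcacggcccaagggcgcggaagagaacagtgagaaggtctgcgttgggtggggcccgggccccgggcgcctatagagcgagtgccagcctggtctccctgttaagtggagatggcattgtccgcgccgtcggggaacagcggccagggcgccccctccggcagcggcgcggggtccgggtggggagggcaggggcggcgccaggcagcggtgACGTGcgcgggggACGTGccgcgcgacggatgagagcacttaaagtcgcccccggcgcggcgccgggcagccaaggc
Bnip3 held 5 matches, which overlap in part and lie between -117 and -35 from the start, Ankrd37 held 4, and Egln1 and Slc16a3 held 2 each. Matches of such short letters are common. At least 1 match stood in a promoter of 10 of the 10 hypoxia and glycolysis genes called higher, of 70.6% of the compared genes with a promoter in the table (6932) and of 46.7% of all 27025 genes in it. For ACGTG alone these shares were 70.0%, 31.1% and 21.8%. Among all compared members of the hypoxia and glycolysis lists, called or not, the ACGTG share ran from 54.5% to 85.7% by list. The high share thus belonged to the lists and not to the called members alone. A match is a description of the letters and shows no binding.

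Mitochondrial and mitophagy genes led the hypoxia lists, with a median ratio of 0.87 over 7 members (1.07 length-adjusted). Bnip3, a mitophagy receptor, stood at 14.9 CPM in vehicle and 14.7, 54.8, 78.6 and 71.6 CPM at 2, 6, 12 and 24 h. Vehicle and 2 h were thus level and the later libraries were all higher. Its ratio at 6 h was 1.88 (interval 1.74 to 2.03), and 2.32 length-adjusted. Its relative Bnip3l, with 35.8, 30.4, 65.3, 120 and 123 CPM in the same order, had a ratio of 0.87 and was called only length-adjusted (1.07). Pdk1, the kinase that switches off pyruvate dehydrogenase, had 37.4 CPM without the compound and 47.7, 105, 142 and 135 CPM at 2, 6, 12 and 24 h with it. Its ratio was 1.48 (1.39 to 1.58), with 1.29 length-adjusted. Higd1a, a small inner membrane protein induced by hypoxia, was at 27.1 CPM in vehicle, 26.3 at 2 h and 52.6 at 6 h, a ratio of 0.95 (1.07 length-adjusted). For all of these the 12 h and 24 h libraries lay above 6 h.

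Oxygen sensing genes moved less as a list, with a median of 0.37 over 9 members and 1 called. The called gene was Egln1, which encodes the main prolyl hydroxylase that marks HIF for degradation. Egln1 had 81.6 CPM in vehicle, and 92.8, 184, 231 and 207 CPM after 2, 6, 12 and 24 h. Its ratio was 1.17 (1.11 to 1.24), 1.03 length-adjusted, and nearly all of it lay between 2 h and 6 h (0.99). Hif1a itself, the oxygen-regulated subunit, stood at 250, 282, 291, 306 and 325 CPM over the series, with a ratio of 0.22. P4ha1, a collagen prolyl hydroxylase, was highest at 6 h, at 213 CPM against 144 in vehicle and 178 at 24 h, with a ratio of 0.56.

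Among the other hypoxia genes 3 of 13 were called, with a list median of 0.70. Ankrd37, an ankyrin repeat gene known as a HIF target, was at 8.63 CPM in vehicle and 15.5, 28.1, 32.8 and 25 CPM at 2, 6, 12 and 24 h. The ratio was 1.70 (1.52 to 1.90), with 2.02 length-adjusted, and the 2 h library lay between vehicle and 6 h. Ddit4, an inhibitor of mTORC1 induced by hypoxia and by ATF4, went from 16 CPM in vehicle and 29 at 2 h to 39.9 at 6 h, a ratio of 1.32 (1.43 length-adjusted). Narf was called at 1.03 with 0.87 length-adjusted, so its call was lost there. Ero1a (0.88), Ndrg1 (0.76), Bhlhe40 (0.76) and Kdm3a (0.70) were above vehicle but not called. Some classical targets were too low to be compared: Vegfa, the angiogenic factor, was at 3.39 CPM in vehicle and 5.68 at 6 h. Ak4, a mitochondrial adenylate kinase also under 10 CPM at 6 h, stood at 0.427 CPM without the compound and 1.42, 7.09, 14.7 and 18.2 CPM at 2, 6, 12 and 24 h with it, each library higher than the one before. P4ha2 likewise went from 1.19 to 7.42 CPM between vehicle and 6 h, with ratios of 3.90 for Ak4 and 2.59 for P4ha2.

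**Figure D3:**
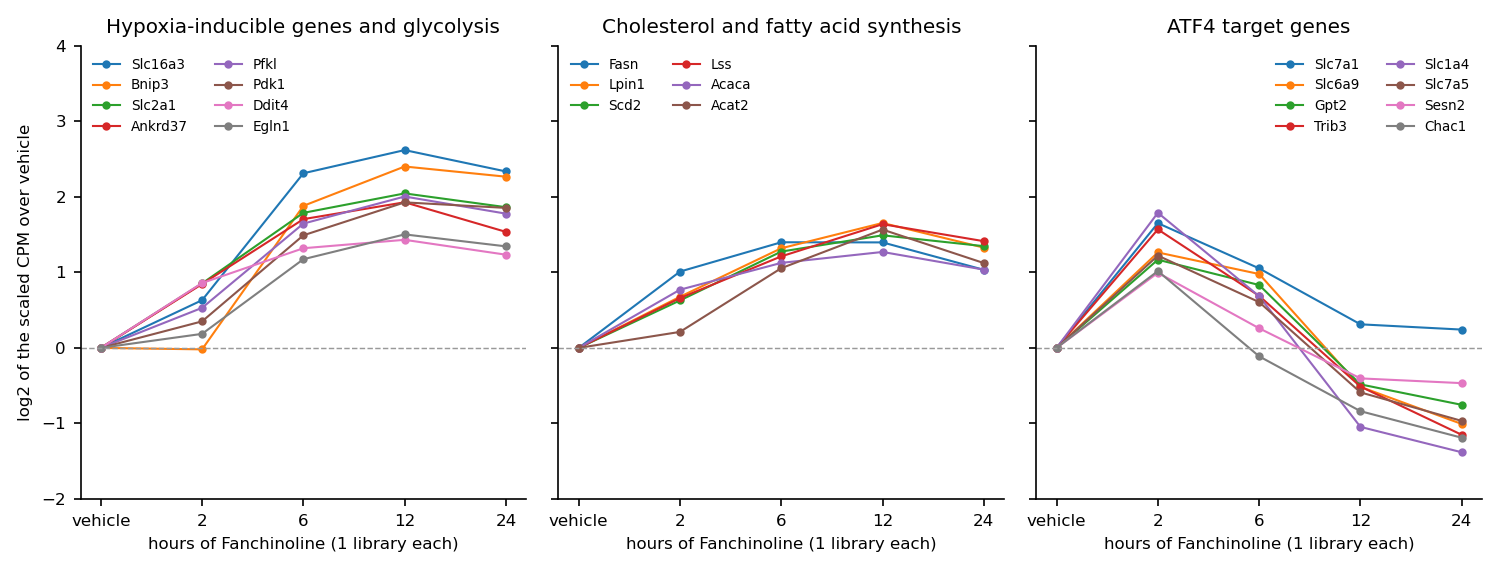
Log2 of CPM over the vehicle CPM (y axis) in the vehicle library and after 2, 6, 12 and 24 h of Fanchinoline (x axis, 1 library each) for 6 to 8 genes in each of 3 groups. Bnip3 stays at vehicle level at 2 h and lies above it from 6 h on, the lipid genes are already above vehicle at 2 h in most cases, and the ATF4 targets are highest at 2 h.

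Glucose uptake, glycolysis and lactate export stood above vehicle at nearly every step. Of 21 compared members of 25, 20 had a ratio above 0, and 4 were called higher, against 1.5% of all compared genes. Of the 21, 0 were called lower, and the median was 0.62 (0.68 length-adjusted, with 5 called higher, against 0.655%). Their summed level was 17900 CPM in vehicle and 26200 CPM at 6 h.

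The gene with the highest ratio of the group was Slc16a3, the proton-coupled exporter MCT4 that carries lactate out of glycolytic cells. It had 96.2 CPM in vehicle, and 149, 477, 590 and 485 CPM after 2, 6, 12 and 24 h. Most of the difference therefore lay after 2 h, and the ratio at 6 h was 2.31 (2.25 to 2.36; 2.05 length-adjusted). Slc2a1, the glucose importer GLUT1, was at 49 CPM in vehicle and 88.5, 169, 202 and 178 CPM at 2, 6, 12 and 24 h. Its ratio was 1.78 (1.70 to 1.86; 1.70 length-adjusted). Pfkl, the liver-type phosphofructokinase that commits sugar to glycolysis, had 151, 218, 472, 605 and 517 CPM in the same order. Its ratio was 1.65 (1.60 to 1.69; 1.47 length-adjusted). Hk2, a hexokinase that traps glucose as its phosphate, differed from these in timing. It was at 111 CPM in vehicle, but already at 214 at 2 h, then 238, 231 and 195. Its ratio of 1.09 fell under the rule when length-adjusted (0.74).

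The later enzymes had smaller ratios on high levels. Tpi1, triosephosphate isomerase, stood at 1010 CPM without the compound and 1080, 1900, 2720 and 2460 CPM at 2, 6, 12 and 24 h with it, a ratio of 0.91 (1.09 length-adjusted). Pgk1, phosphoglycerate kinase, was at 712, 865, 1270, 2240 and 2270 CPM, a ratio of 0.84 (1.05 length-adjusted). Both were called only length-adjusted, and both were higher still at 12 h. Pgam1 (0.76), Eno1 (0.67), Ldha (0.62), Aldoa (0.53), Pkm (0.38) and Gapdh (0.36) were positive and not called. Slc2a6, a glucose transporter of intracellular membranes, was the member below vehicle (-0.21).

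Pgm1 is named here after its values were seen. This gene, phosphoglucomutase, which links glucose 1-phosphate and glucose 6-phosphate, had 103 CPM in vehicle, and 111, 241, 318 and 293 CPM after 2, 6, 12 and 24 h. Its ratio was 1.23 (1.33 length-adjusted), with the difference again after 2 h.

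Genes of pyruvate dehydrogenase and the TCA cycle were mostly level as a list, which does not hold Pdk1. Among 27 genes of pyruvate dehydrogenase and the cycle 1 was called and the median was -0.04 (0.11 length-adjusted). The called gene was Pdpr, the regulatory subunit of pyruvate dehydrogenase phosphatase, with 3.81 CPM in vehicle and 19.1, 21.1, 21.1 and 22.8 CPM at 2, 6, 12 and 24 h. Its ratio was 2.45 (2.20 to 2.75; 2.24 length-adjusted), and only 0.14 of that lay between 2 h and 6 h, unlike Pdk1. Histone lysine demethylases, oxygen-dependent enzymes of which some are HIF targets, had a median of 0.54 over 20 members, and 0.16 length-adjusted. Kdm4b, with 25.3 CPM in vehicle, 44.2 at 2 h and 66.3 at 6 h, was the called one (1.39; 1.08 length-adjusted).

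**Figure D4:**
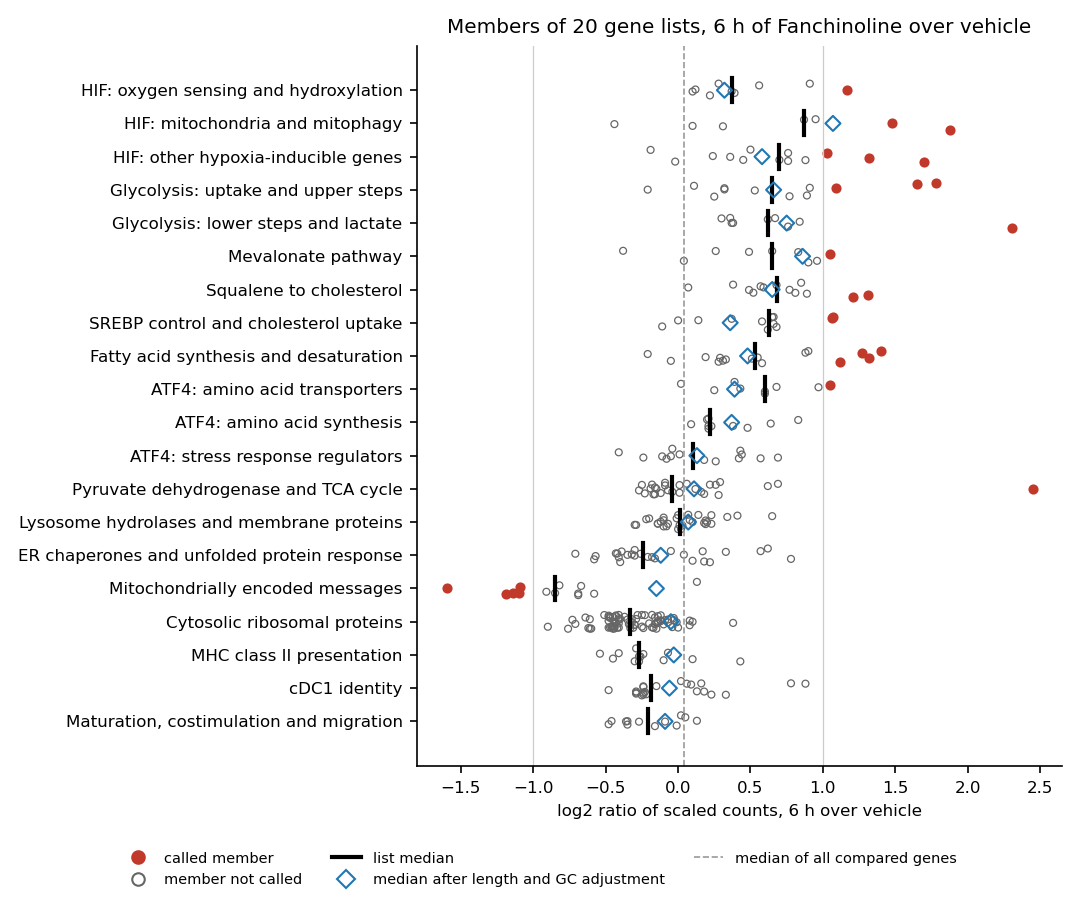
Log2 ratio of 6 h over vehicle (x axis) for each compared member of 20 gene lists (rows), with called members filled, list medians as bars and length-adjusted medians as diamonds; the dashed line is the median of all compared genes. The hypoxia, glycolysis and cholesterol lists have medians between 0.37 and 0.87, and the mitochondrially encoded messages have a median of -0.85 that moves to -0.15 with the adjustment.

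Cholesterol genes stood above vehicle from the first enzyme to the last. Of 35 listed genes of synthesis, control and uptake, 34 were compared and 32 had a ratio above 0. Called higher were 5, against 1.5% of all compared genes, and 0 were called lower. The median of the 34 was 0.65, and for 6 h over 2 h it was 0.37. Length-adjusted it was 0.61 with 3 called higher, against 0.655% of all compared genes. The summed level of the 34 cholesterol genes was 4990 CPM in vehicle and 7490 CPM at 6 h.

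In the mevalonate pathway, which makes the isoprene units, 1 of 9 was called and the median was 0.65 (0.86 length-adjusted). Acat2, the cytosolic thiolase at the start of the pathway, had 70.3 CPM without the compound and 81.4, 146, 208 and 153 CPM at 2, 6, 12 and 24 h with it. The ratio was 1.05 (0.98 to 1.12; 1.19 length-adjusted). Hmgcs1, an early synthase of the pathway, was level from vehicle (218 CPM) to 2 h (229) and at 386 CPM at 6 h, a ratio of 0.83. Mvd (0.90) and Idi1 (0.65) were also above vehicle, Fdps was at 0.26, and Ggps1, which makes the geranylgeranyl group for protein anchors and not sterols, was the lowest at -0.38.

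All 13 members of the branch from squalene to cholesterol were above 0, with a median of 0.68 and 2 called. Lss, lanosterol synthase, was at 57.9 CPM in vehicle, and 91.4, 134, 180 and 154 CPM after 2, 6, 12 and 24 h. Its ratio was 1.21 (1.13 to 1.28) and 0.78 length-adjusted, under the rule. Hsd17b7 (0.89), Dhcr7 (0.85) and Sqle (0.81) followed without a call, and Ebp was near vehicle (0.07).

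Uptake and control genes had a median of 0.63 over 12 members (0.36 length-adjusted) with 2 called. Stard4, a sterol carrier, had 44.6 CPM in vehicle, 61.9 at 2 h and 93 at 6 h, a ratio of 1.06 (0.95 length-adjusted). Srebf2, the gene of the controlling factor itself, went from 606 CPM in vehicle to 930 at 2 h and 956 at 6 h, a ratio of 0.66, and 0.30 length-adjusted. Genes that respond the other way to sterol were near vehicle in the median only. The LXR list, for cholesterol export and storage, had a median of 0.09 over 5 members (-0.06 length-adjusted) and 0 called. Of these 3 were above 0, while Abcg1 was at -0.41 (-0.81 length-adjusted) and Mylip at -0.11.

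The sterol regulatory element TCACNCCAC, searched on both strands in the same 300-base windows, was in 0 of the 2 called cholesterol genes with a promoter in the table, Acat2 and Lss, and in 1.44% of all genes there. That speaks only for these letters in this window.

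**Figure D5:**
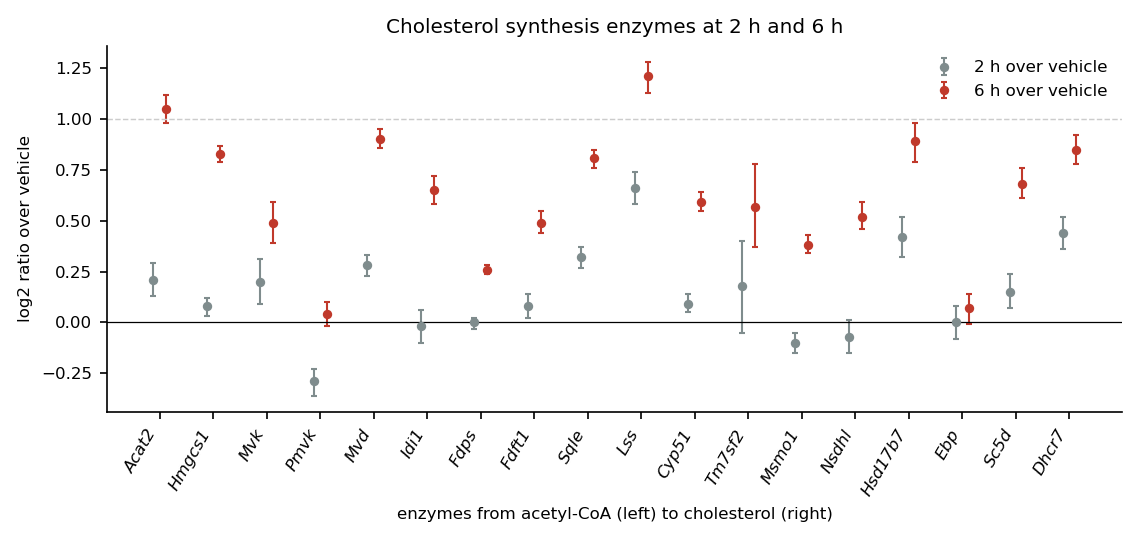
Log2 ratio over vehicle with its 95% counting interval (y axis) at 2 h and 6 h for 18 enzymes of cholesterol synthesis in pathway order (x axis). Acat2 and Lss are past 1 at 6 h, and Hmgcs1 is near 0 at 2 h and at 0.83 at 6 h.

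Fatty acid synthesis genes shared the direction, and here the length adjustment took away every call. The list had 16 compared members and a median of 0.53 (0.48 length-adjusted, with 0 called). Of the 16, 4 were called higher, against 1.5% of all compared genes. Fasn, the fatty acid synthase, had 306 CPM without the compound and 616, 806, 805 and 626 CPM at 2, 6, 12 and 24 h with it. Its ratio was 1.40 (1.37 to 1.43) and 0.67 length-adjusted. Scd2, a desaturase, was at 488, 754, 1180, 1370 and 1240 CPM, a ratio of 1.27 (0.97 length-adjusted). Lpin1, a phosphatidate phosphatase (1.32; 0.99 length-adjusted), and Acaca, the acetyl-CoA carboxylase (1.12; 0.53 length-adjusted), were the other called members. Acly, which supplies cytosolic acetyl-CoA to both lipid pathways, was at 0.90, and Acsl5, which activates finished fatty acids, was at -0.21. Ceramide enzymes were mostly level, with a median of 0.14 over 15 members and 0 called.

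Iron genes were largely level apart from the import receptor. Tfrc, the transferrin receptor, stood at 85.7 CPM in vehicle, and 135, 219, 221 and 241 CPM after 2, 6, 12 and 24 h. Its ratio was 1.36 (1.29 to 1.42; 1.41 length-adjusted) and it was the called member among 12. Fth1, the ferritin heavy chain that stores iron, was at 1710 CPM in vehicle and 1400 at 6 h (-0.29), and went on to 889 CPM at 24 h. Hmox1, heme oxygenase, was at 0.21.

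The summed level of ATF4 targets was highest at 2 h and lower at 6 h. The 3 ATF4 lists had 33 compared members of 42, with 27 above 0 and 1 called higher, against 1.5% of all compared genes. The median of these lists was 0.26 (0.25 length-adjusted, with 0 called). Their summed level was 3560 CPM in vehicle and 5080, 4280, 2850 and 2520 CPM at 2, 6, 12 and 24 h. The 6 h library lay between the high level of 2 h and the low levels of 12 h and 24 h. For 6 h over 2 h the median was -0.17, and for 12 h over 6 h it was -0.59. The amino acid synthesis list did not share the first step, with a median of 0.02 for 6 h over 2 h and Cth at 0.36. Atf5, on the list of stress response regulators, also stood above 2 h (0.27).

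Transporters were the highest of the 3 lists, with a median of 0.60. Slc7a1, which imports arginine and lysine, had 85.4 CPM without the compound and 268, 177, 106 and 101 CPM at 2, 6, 12 and 24 h with it. At 1.05 (0.99 to 1.11) it was the called member, and length-adjusted it was at 0.56. Slc6a9, a glycine transporter, had 22.3, 53.5, 43.9, 15.6 and 11.1 CPM, so that 6 h lay above vehicle (0.97) and 24 h below it. Slc1a4, a neutral amino acid transporter, had 17.5 CPM in vehicle, and 60.4, 28.1, 8.48 and 6.72 CPM after 2, 6, 12 and 24 h. It was the sharpest of these in its return, with 0.68 over vehicle and -1.10 over 2 h. Slc7a5, of the large neutral amino acid transporter, was at 209 CPM in vehicle, 487 at 2 h and 318 at 6 h (0.60).

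Enzymes and regulators were closer to vehicle. Of 10 amino acid synthesis genes 0 were called and the median was 0.22, with Gpt2, an alanine transaminase, at 0.83, Cth at 0.64 and Asns, asparagine synthetase, at 0.23. Asns was at 118, 141 and 138 CPM in vehicle, at 2 h and at 6 h, then at 64.6 and 44.8. Stress response regulators had a median of 0.10 over 14 members. Trib3, a pseudokinase induced by ATF4, was at 0.69, Sesn2 at 0.26, and Atf4 itself, which is controlled largely in translation, at -0.05 (0.04 length-adjusted). Ddit3 (CHOP) was at -0.41, and at 0.03 length-adjusted, and Chac1 was at -0.11 (0.03 length-adjusted), having stood at 2 h at 27.1 CPM against 13.4 in vehicle and 12.4 at 6 h. The Ddit3 value is that of 1 entry, which shares an exon with another annotated entry of that name. The aminoacyl-tRNA synthetases, which charge tRNAs and include ATF4 targets, had a median of 0.17 over 20 members and 0 called. Among the 18 genes called lower from 6 h to 12 h, 7 were on the ATF4 lists: Slc1a4, Slc6a9, Gpt2, Trib3, Slc7a5, Asns and Cth. The ATF4 lists held 33 of the 8708 genes compared at 6 h over vehicle.

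Several of the genes with the highest ratios were already high at 2 h. Peak1, a pseudokinase scaffold of focal adhesions, had 5.34 CPM in vehicle and 30.8, 40, 41.1 and 46 CPM at 2, 6, 12 and 24 h. Its ratio was 2.89 (2.68 to 3.14) and 2.43 length-adjusted. Plekhm3 (2.57), a PH domain adaptor, was at 18.7 CPM in vehicle and at 112, 111, 122 and 141 afterwards. The copper pump Atp7a (2.29), the junction protein Heg1 (2.16), the orphan nuclear receptor Nr2c2 (1.81) and the kinase Hipk2 (1.76) showed the same step, with -0.07 to 0.27 between 2 h and 6 h. Heg1, for example, was at 6.83 CPM in vehicle and between 30.3 and 32.3 CPM in every treated library.

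Others among the highest did not take this course. Phc3, a Polycomb subunit, was at 5.55 CPM in vehicle, 30.9 at 2 h and 33.8 at 6 h, then at 12.5 and 14.5. Its ratio at 6 h was 2.60. Mfsd4a, a transporter family member, stood at 2.68 CPM without the compound and 0.857, 16.4, 15.3 and 0.96 CPM at 2, 6, 12 and 24 h with it. It was high only in the 6 h and 12 h libraries, with a ratio of 2.59 (2.29 to 2.95) over vehicle and 4.18 over 2 h. Atm, the kinase that senses DNA breaks, was at 7.56, 17.4, 25.4, 24.4 and 35.6 CPM, a ratio of 1.74.

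Among 23 focal adhesion adaptors 3 were called, and the same 3 length-adjusted. They were Peak1, its partner Bcar1 and vinculin. Over all compared genes 1.88% were called, and 0.954% length-adjusted. The list median was 0.24 (0.13 length-adjusted), beside 0.04 over all compared genes. This list too was chosen with earlier results of these data known. Bcar1, the docking protein p130Cas, was at 2.78 CPM in vehicle, and 3.56, 10.6, 19.4 and 20.9 CPM after 2, 6, 12 and 24 h. Its ratio was 1.92 (1.61 to 2.28), and in contrast to Peak1 most of it lay between 2 h and 6 h (1.56). Vcl, which encodes vinculin, had 43.6, 110, 134, 117 and 112 CPM, a ratio of 1.62 (1.53 to 1.70; 1.36 length-adjusted). Zyx, zyxin, was the lowest member (-0.32), at 406 CPM in vehicle and 325 at 6 h.

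Among the genes called lower, Rffl, a ubiquitin ligase of endosomes, was at 17.7 CPM in vehicle and 4.02, 3.11, 4.08 and 2.81 CPM at 2, 6, 12 and 24 h. The ratio was -2.49 (-2.79 to -2.23), and all treated libraries were low. The annotated span of Rffl overlaps that of Lig3 on the opposite strand. Lig3 was called higher (1.08), at 22 CPM in vehicle and 46.5 at both 2 h and 6 h. The library kit does not mark strand, so how reads of the shared stretch were divided between these entries is not known. Both compared apolipoprotein L genes were below vehicle. Apol7c, a dendritic cell member of that family of pore-forming proteins, had 26.9, 14.2, 9.7, 8.56 and 4.66 CPM and a ratio of -1.47 (-1.65 to -1.30; -1.29 length-adjusted). Apol10b had 75, 51, 40.8, 38.4 and 26.1 CPM and a ratio of -0.88, not called. In both, each library was lower than the one before. Hdgfl3 (-1.36; 15.1 CPM in vehicle, 5.84 at 6 h) and Xlr, a lymphoid gene family member (-1.09; 222 CPM in vehicle, 105 at 6 h), were low in all treated libraries. Length-adjusted, Hdgfl3 was still called (-1.47) and Xlr was not (-0.61).

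The nuclear long non-coding RNAs had a median of -0.67 over 7 members, and -0.37 length-adjusted, with 1 called. Malat1, a nuclear speckle RNA, stood at 274 CPM without the compound and 150, 113, 93.2 and 81.7 CPM at 2, 6, 12 and 24 h with it, a ratio of -1.28 (-1.53 length-adjusted). Neat1, the scaffold RNA of paraspeckles, had 18.9 CPM in vehicle, 13.2 at 2 h and 11.2 at 6 h, a ratio of -0.75, and was called only length-adjusted (-1.48). For both the length-adjusted ratio was further from 0, unlike that of the list. That adjustment takes the longest annotated transcript, and which transcripts the reads came from is not known. The libraries were poly-A libraries, and the part of that selection in these values was not tested.

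Some calls concern how reads are divided among overlapping entries. Of the genes called lower, 17 of 33 (51.5%) overlap an exon of a second gene on their strand, against 9.41% of compared genes and 16.8% of those called higher. Overlaps with genes on the opposite strand, such as Rffl with Lig3, are not in these shares, although the library kit does not mark strand. Both entries of Nnt, nicotinamide nucleotide transhydrogenase, were called, in opposite directions: one was at 85.6 CPM in vehicle and 17.7 at 6 h (-2.27), the other at 15.7 and 87.8 (2.48). Their sum was 101 CPM in vehicle and 106 at 6 h (0.06). Dpm1, a dolichol-phosphate mannose synthase subunit, had a ratio of -2.38, but Dpm1 and Gm20716 together were at 27.8 and 30.8 CPM (0.15). Gm20716 had 0 counts in vehicle and 1084 at 6 h, at least 279-fold higher with 3 counts as the floor for vehicle. The entries of Zc3h11a and Gm38394 together were at 0.38. For Nnt and Dpm1 the sums moved little, while the Zc3h11a and Gm38394 sum was at 116 CPM in vehicle and 151 at 6 h. At these loci no change of the named gene is read from a single entry. Acat2, Apol7c, Apol10b, Xlr, the MHC genes and the ribosomal protein genes have close copies elsewhere in the genome. The treatment of reads matching several places is not stated in the labels, so their levels are uncertain to that extent. The same holds for mitochondrial messages: the nuclear entry Gm10925 was at 2260 CPM in vehicle and 988 at 6 h beside mt-Atp6 at 2160 and 946, and Gm28438 was at 264 and 124 CPM beside mt-Nd3 at 272 and 128, all 4 called lower.

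Groups of very long genes were set together after their values were seen, and they moved with length. Of all compared genes 1.5% were called higher, and of the 307 over 9 kb 46 were. Of 4 VPS13 lipid transfer proteins, which bridge membranes, 3 were called, with Vps13d at 21.4 CPM in vehicle and 50.9 at 6 h (1.25). Length-adjusted, their median went from 1.18 to 0.45 with 0 called. Of 10 very large ubiquitin ligases 5 were called, among them Herc2 (1.30) and Ubr4, which was at 237 CPM in vehicle, 487 at 2 h and 480 at 6 h (1.02; 0.16 length-adjusted). Of 13 large chromatin regulators 8 were called, including Kmt2c (1.18), Srcap (1.17) and Ep300 (1.04), and their median of 1.02 came to 0.38 with 0 called. Not all long genes moved alike: Chd8 was at 0.31.

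Short messages lay on the other side. Of the 13 mitochondrially encoded messages 5 were called lower (mt-Nd6, mt-Atp6, mt-Cytb, mt-Nd4 and mt-Nd3), against 0.379% of all compared genes. The median of the 13 messages was -0.85. They summed to 25800 CPM in vehicle and 14900 at 6 h. Length-adjusted, the median was -0.15 and 0 were called, and for 6 h over 2 h it was 0.02. mt-Nd6, the only one of these messages on the light strand, had 475 CPM in vehicle, and 169, 157, 212 and 198 CPM after 2, 6, 12 and 24 h (-1.60; -0.76 length-adjusted). The library kit does not mark strand, so reads of its opposite strand cannot be told apart, and their part was not tested. mt-Nd4l was above vehicle (0.13). Cytosolic ribosomal proteins, with a median length of 1059 bases, had 75 of 79 below 0, a median of -0.33 and 0 called; length-adjusted it was -0.05. Nuclear-encoded respiratory chain subunits (40) had a median of -0.17, and 0.08 length-adjusted, with Uqcrb lowest at -0.92 (-0.25 length-adjusted). Proteasome subunits (31) were at -0.24, and at 0 length-adjusted.

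Lists for organelle stress had 0 called members each, which at 1.88% called over all compared genes is near the background for lists of this size. The 26 ER chaperones and genes of the unfolded protein response were at a median of -0.24 (-0.12 length-adjusted). Hspa5, the chaperone BiP, was at 1470 CPM in vehicle, 1250 at 2 h and 1090 at 6 h (-0.43), Calr was at -0.39, Pdia3 at -0.57 and Manf at -0.71, while the sensors Ern1 (0.78; 0.32 length-adjusted) and Atf6 (0.57; 0.19 length-adjusted) were above vehicle. Heat shock chaperones (15, median -0.13) and NRF2 targets (22, median -0.04) were near vehicle. Lysosomal hydrolases and membrane proteins had a median of 0.01 over 31 members, and the proton pump had 0.11 over 16. Autophagy genes (32) were at 0.15, with Sqstm1, the cargo receptor p62, at 418 CPM in vehicle and 535 at 6 h (0.36). Flcn, folliculin, which controls TFEB through mTORC1, was at 15.8 CPM in vehicle, 29.6 at 2 h and 31.5 at 6 h, and its ratio of 1.0 just missed the rule, whereas Tfeb was at -0.10.

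Calcium channels and pumps of the lysosome and ER had 15 compared members, 0 called and a median of 0.12. Ryr1, the ryanodine receptor that releases ER calcium, was at 58.5 CPM in vehicle and 50.6, 42.9, 48.2 and 47.9 CPM at 2, 6, 12 and 24 h. Its ratio was -0.45 and, since its transcript is very long, -1.34 length-adjusted, where it was called lower. Itpr1, the inositol trisphosphate receptor, was at 0.95 (0.33 length-adjusted), and the two-pore channel gene Tpcn1 was at 0.60.

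Dendritic cell identity genes had a median of -0.19 over 22 members (-0.06 length-adjusted) and 0 called. Irf8, the factor that sets the cDC1 lineage, was at 4260 CPM without the compound and 5140, 4320, 3660 and 3280 CPM at 2, 6, 12 and 24 h with it. At 6 h it was level with vehicle (0.02). Xcr1, the chemokine receptor of cDC1, was at -0.24, Ly75, the uptake receptor DEC-205, at 0.88, and Wdfy4, needed for cross-presentation, at 0.78 and 0.07 length-adjusted. MHC class II genes (13) had a median of -0.27, and -0.03 length-adjusted. Cd74, the invariant chain, was at 9700 CPM in vehicle, and 7200, 6680, 6060 and 5540 CPM after 2, 6, 12 and 24 h (-0.54), and H2-Ab1 was at -0.24 (-0.03 length-adjusted). MHC class I genes (20) had a median of 0.04, with H2-K1 at 0.02 and B2m at -0.65, or -0.06 length-adjusted.

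Activation genes were not higher as a group. Maturation and costimulation genes had a median of -0.21 over 12 members and 0 called, with Cd86 at -0.27 (0 length-adjusted), Cd80 at -0.46 and Cd40 at -0.36. NF-kB and cytokine genes (14) had a median of -0.08, with Cxcl9 at 20.6 CPM in vehicle and 11.7 at 6 h (-0.81), Nfkbia at -0.51 and Rel at 0.81. Interferon-stimulated genes (17) were at -0.05, with Isg15 at -0.21, and 0.11 length-adjusted, where the sign turned. Tlr9, the endosomal receptor for CpG DNA, was the called member of 13 Toll-like receptor genes. It was at 57.1 CPM in vehicle and 126, 122, 124 and 157 CPM at 2, 6, 12 and 24 h, a ratio of 1.10 (1.02 to 1.18) and 0.97 length-adjusted. Of 18 AP-1 and immediate early genes the called one was Fosl2 (1.04; 0.57 length-adjusted). TAM receptors and their ligands had 0 compared members.

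Cell cycle and death lists also had 0 called members each, again near the 1.88% over all compared genes. DNA replication genes (42) had a median of 0.15, with Mcm2 at 0.52, and mitosis genes (29) had -0.12, with Ube2c at -0.58 and Birc5 at -0.56. Mki67, the proliferation marker, was at 337 CPM in vehicle and 420 at 6 h (0.32), and at -0.24 length-adjusted, where the sign turned. The BCL2 family (14) had a median of -0.09. Its highest member was Bcl2l11, the pro-apoptotic BIM, with 25 CPM without the compound and 35.9, 44.5, 69.9 and 109 CPM at 2, 6, 12 and 24 h with it. At 6 h its ratio was 0.83, and each library was higher than the one before. Caspase genes (17) were at -0.09, with Casp1 at -0.85 (-0.35 length-adjusted), and p53 targets (12) at -0.02, with Cdkn1a at 0.22. Myc was at -0.39.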

How the data were processed

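The authors deposited raw counts per gene entry, with 1 column per time point. Per the submitters' processing notes, Trim Galore, HISAT2 and GRCm38 were used. The sources used here do not name the counting program, its annotation or its strand setting. Per the labels' protocols, TRIzol RNA was made into poly-A libraries with a kit that does not mark strand. Total counts were 33568526 to 42854511 per library; 10 CPM is 328 to 427 counts, and 3 counts, the limit that a count of 0 allows, is 0.0703 to 0.0915 CPM. Intervals and limits cover counting error only, since PCR reads are not independent molecules.

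Counts were scaled with TMM factors over the 5 libraries (0.977 to 1.05) and log2 CPM taken with 2 as prior count, in edgeR 4.0.16 with limma 3.58.1 under R 4.3.3 (intervals in Python 3.11.15, scipy 1.17.1). Entries with at least 10 CPM in either library were compared, and called at a log2 ratio of at least 1 in size with a 95% Clopper-Pearson interval excluding equal levels. The rule compares libraries, not conditions. Length-adjusted ratios are residuals of a robust spline fit (5 degrees of freedom each; statsmodels 0.14.6, patsy 1.0.2) on log2 length of the longest GENCODE M21 transcript and GC content. The call rule was tested on simulated data that held counting error only, so that check cannot tell how the rule fares with spread between libraries.

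Members and gene lists were chosen with earlier results of these data known. Named genes were the 20 highest and 20 lowest called, the 12 largest gains and losses in CPM, called or up to 4 leading members of each list, 21 genes fixed by name, the 10 lowest in vehicle among those at 10 CPM or more at 6 h, and the called genes standing furthest from the mean of 2 h and 12 h; some are left out for length, and results for some genes are not reported here. Other members of a list, genes of steps between treated libraries and groups said to be so were chosen after their values were seen. Alternatives covered scaling (DESeq2 1.42.0 size factors, totals, TMM over both libraries), prior count, CPM minimum, length and GC, exons shared on the same strand and mitochondrial entries.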

Additional observations from a re-analysis of the deposited data

How the results depend on the processing

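More genes were called higher than lower under each setting given here. Against 131 genes called higher and 33 lower, a minimum of 1 CPM gave 272 and 195 over 11770 genes, and a minimum of 30 CPM gave 91 and 17 over 6119. The length and GC adjustment gave 57 and 26, which moved the higher share of calls from 79.9% to 68.7%, kept 62 of the 164 calls and added 21. Leaving out entries that share exons on the same strand gave 109 and 16, and overlaps with the opposite strand stayed in. With the 2 h library in place of vehicle, a setting chosen after seeing the data, 14 were higher and 8 lower, 12 of the 164 were among them in the same direction, and 1 Nnt entry in the opposite one. DESeq2 size factors, totals alone, TMM over the 2 libraries, prior counts of 0.5 and 10 and leaving out mitochondrial entries gave 127 to 148 higher and 27 to 33 lower. No paired analysis was possible because each group holds 1 library, and for the same reason no replicate could be left out. Depth limits genes under 10 CPM, and the lack of replicates limits all others.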

Other observations

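Clock genes, a list not described above, had a median log2 ratio of 0.49 over 10 compared members (0.41 length-adjusted) with 0 called. Tef, a PAR-domain transcription factor driven by the clock, was at 10.9 CPM in vehicle, and 19.1, 21.6, 22.4 and 20.7 CPM after 2, 6, 12 and 24 h, a ratio of 0.98. Ciart, a repressor of the clock, was at 12.1, 17.2, 22.8, 27.4 and 25 CPM, a ratio of 0.90 that was called length-adjusted (1.05). Per1 was at 0.68 and Csnk1d at 0.32. Hours in culture change together with exposure in these libraries, and the part of either was not tested.

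Ighm, the immunoglobulin heavy chain constant gene, stood at 31.5 CPM in vehicle and 24.5, 26, 54.1 and 92.3 CPM at 2, 6, 12 and 24 h.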
